A study of Mus musculus with 11 samples.

Results

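The 7 genes of the TNF receptor family that lie on distal chromosome 4 of the mouse and were followed here are Tnfrsf1b, Tnfrsf8, Tnfrsf9, Tnfrsf25, Tnfrsf14, Tnfrsf4 and Tnfrsf18. They were chosen by name, as candidates for the diabetes resistance locus Idd9. The members are the probe sets of the Affymetrix Mouse Genome 430 2.0 array whose annotation names exactly 1 of these symbols, and 10 of the 45101 probe sets did so. Tnfrsf1b has 2 of them, Tnfrsf9 has 3 and each of the other genes has 1. As genes they are 7 of 18193 tested. RNA came from splenic B cells of female mice aged 6 weeks. NOD (NOD/ShiLtJ) mice become diabetic spontaneously, and NR4 (NOD.NOR-Chr4/DvsJ) mice are NOD mice that carry a chromosome 4 segment of the related, diabetes-resistant NOR strain. Cells of 7 to 8 spleens were pooled per lot, other cell types were depleted with magnetic beads, and the B cells were then cultured for 2 h. Stimulated cultures received 10 µg/ml anti-IgM, F(ab')2 fragments of a goat antibody that cross-link the B cell receptor, and unstimulated cultures received none. NOD cells were hybridised on 3 unstimulated and 2 stimulated arrays, and NR4 cells on 3 of each kind. Each lot was divided between both cultures.

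TNF receptors are membrane proteins that bind trimeric ligands of the TNF family. Most of them, including TNFR2 (Tnfrsf1b), OX40 (Tnfrsf4), CD30 (Tnfrsf8), 4-1BB (Tnfrsf9), HVEM (Tnfrsf14) and GITR (Tnfrsf18), recruit TRAF adaptor proteins and activate NF-kB. DR3 (Tnfrsf25) carries a death domain in its cytoplasmic tail. OX40, 4-1BB, GITR and DR3 are known mainly as costimulatory receptors of T cells, while HVEM and TNFR2 are found on many blood cells, B cells among them. Distal chromosome 4 is the site of several of these genes, and Tnfrsf9 in particular has been studied as a diabetes gene of NOD mice.

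Promoters are shown for the members to which the strain and response values below give most attention, and for the second start site of Tnfrsf9, which holds matches to binding motifs of factors downstream of the B cell receptor. The sequences are from RefSeq on build GRCm38.p6, in which all 7 genes were found with 9 start sites, and each run is the 250 bases before the start, 5′ to 3′ on the strand of the gene. Capitals mark matches, on either strand, to 3 motifs: NF-kB, searched as GGGA and CC with any 4 bases between them, AP-1 (TGANTCA) and the core of NFAT sites (GGAAAA). The Tnfrsf1b window is chr4:145246871-145247120 on the minus strand, that of Tnfrsf4 is chr4:156013445-156013694 on the plus strand, and that of the second Tnfrsf9 start is chr4:150927749-150927998 on the plus strand.
Tnfrsf1b: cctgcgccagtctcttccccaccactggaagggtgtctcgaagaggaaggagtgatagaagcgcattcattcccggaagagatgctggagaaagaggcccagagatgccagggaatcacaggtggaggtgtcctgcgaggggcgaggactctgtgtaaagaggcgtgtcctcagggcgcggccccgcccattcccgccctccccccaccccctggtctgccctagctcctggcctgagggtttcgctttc
Tnfrsf4: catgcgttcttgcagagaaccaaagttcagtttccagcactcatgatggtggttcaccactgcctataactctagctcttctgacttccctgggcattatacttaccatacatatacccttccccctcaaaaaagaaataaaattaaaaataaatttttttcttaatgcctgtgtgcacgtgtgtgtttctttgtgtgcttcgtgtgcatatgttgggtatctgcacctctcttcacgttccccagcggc
Tnfrsf9, second start: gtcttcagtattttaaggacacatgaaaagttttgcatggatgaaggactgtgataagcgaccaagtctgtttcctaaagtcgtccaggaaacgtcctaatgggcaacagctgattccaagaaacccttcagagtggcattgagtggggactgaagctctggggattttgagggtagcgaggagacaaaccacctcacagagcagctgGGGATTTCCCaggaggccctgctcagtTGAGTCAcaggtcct

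The second Tnfrsf9 window holds the NF-kB match GGGATTTCCC, which begins 42 bases before the start, and the AP-1 match TGAGTCA, which begins 15 bases before it. Each of these 2 matches reads on both strands. The windows of Tnfrsf1b and Tnfrsf4 hold no match to any of the 3 motifs. Of the other windows, that of Tnfrsf8 has 1 NF-kB and 1 AP-1 match, that of Tnfrsf14 has 1 NF-kB and 2 NFAT core matches and that of Tnfrsf18 has 1 NFAT core match. The first Tnfrsf25 window has overlapping NF-kB and NFAT core matches, its second has none, and the first Tnfrsf9 window has 1 NFAT core match. Over all 32851 promoters of the table, 17.6% hold the NF-kB motif in a window of this length, 6.75% the AP-1 motif and 20.4% the NFAT core. A match is a run of letters and not evidence of binding.

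Signals are given as logarithms of unstated base, read here as log2, from which the median of the 11 arrays had been subtracted for every probe set. A value of 0 thus marks the middle array of that probe set, and neither the level of a receptor nor its presence can be read from it. The number of arrays limits the precision. Array medians lay between -0.0011 and 0.022. NR4 anti-IgM replicate 1 stood apart in its actin and Gapdh control probe sets, where the 3' minus 5' difference was 0.96 log2 units against -0.079 to 0.29 on the other 10 arrays. In B cells the markers Cd79a, Cd79b, Ms4a1, Pax5, Cd22 and Blk were measured, but without levels they cannot show how pure the cells were. A change in the number of cells that express a receptor cannot be told apart from a change in RNA per cell.

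The first comparison asked whether the receptors differ between NOD and NR4 B cells. No member gene was called, a call being an adjusted p below 0.05 in limma's moderated test with Benjamini-Hochberg adjustment over all 18193 genes. The same was found in unstimulated cells, in stimulated cells and for the mean of the 2 strain differences, called the averaged difference below. Calls were rare over all genes too, at 0.0605%, 0.0495% and 0.121% in these 3 comparisons. At an unadjusted p under 0.05, limma gave 1 member in unstimulated cells, 1 in stimulated cells and 2 for the averaged difference, against 1.54%, 4.34% and 4.39% of all genes. The averaged difference was above 0, that is higher in NOD, for 6 of the 7 members and for 50.6% of all genes. Its median was 0.18 over the members against 0.0013 over all genes. The members are genes on shared arrays, not replicates. The 10 member probe sets also gave 0 calls, where 0.0577%, 0.0377% and 0.118% of all probe sets were called. Their counts at an unadjusted limma p under 0.05 were 1, 2 and 2, against 1.53%, 4.26% and 4.14%.

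Tnfrsf1b, the receptor TNFR2, gave the smallest p of the members in the averaged comparison, and its 2 probe sets did not show the same thing. Probe set 1418099_at read 0.29, 0.026 and 0.40 in unstimulated NOD cells and 0.67 and 0.65 in stimulated NOD cells. In NR4 cells it read -0.27, -0.26 and -0.70 unstimulated and -0.34, 0 and -0.012 stimulated. Every NOD array lay above every NR4 array within each condition, a separation in this direction seen in 1 of the 10 member probe sets and in 0.937% of all probe sets. The averaged difference was 0.71 log2 units (SE 0.12, 95% interval 0.45 to 0.98, limma adjusted p = 0.095 over 45037 probe sets), with 0.65 (SE 0.16) in unstimulated and 0.78 (SE 0.18) in stimulated cells. It did not pass the threshold. After quantile normalization of the deposited values it did, at 0.74 (SE 0.11, limma adjusted p = 0.032). Over all 15 alternatives the adjusted p ran from 0.032 to 0.49 and the difference from 0.64 to 0.77.

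Probe set 1448951_at of the same gene read 0.36, 0 and -0.28 in unstimulated NOD cells, 0.30 and -0.50 in stimulated NOD cells, 0.11, -0.29 and -0.59 in unstimulated NR4 cells and 0.13, 0.27 and -0.62 in stimulated NR4 cells. The strains overlapped in both conditions. Its averaged difference was 0.13 (SE 0.225, 95% interval -0.38 to 0.63), an interval that overlaps that of the other probe set. Over the 11 arrays the 2 probe sets correlated at r = 0.21, a description of arrays that share lots and processing. The gene value, the median of both, differed by 0.42 (SE 0.13, 95% interval 0.12 to 0.72, limma adjusted p = 0.78). A difference in transcript level and a difference in the sequence under the probes of 1418099_at cannot be told apart here.

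Tnfrsf18, which encodes GITR, had an averaged difference of 0.47 log2 units with wide scatter. It read 0.52, 0.087 and 0.15 in unstimulated NOD cells against 0, -0.14 and -0.46 in unstimulated NR4 cells, which do not overlap. The stimulated arrays read 0.80 and -0.11 in NOD against 0.25, -0.25 and -0.39 in NR4, and these do overlap. The averaged difference had an SE of 0.19 (95% interval 0.053 to 0.88, limma adjusted p = 1.0). Without NOD anti-IgM replicate 1 it was 0.24, and without NOD anti-IgM replicate 2 it was 0.69.

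Tnfrsf4, which encodes OX40 and lies next to Tnfrsf18 in the gene order, did not overlap between strains in stimulated cells. Its single probe set read 0.51 and 0.17 in stimulated NOD cells against 0.063, -0.15 and -0.28 in stimulated NR4 cells. In unstimulated cells the 3 NOD arrays read -0.017, 0 and -0.37 and the 3 NR4 arrays 0, -0.23 and 0, and they overlapped. The strain difference was 0.46 (SE 0.16, limma adjusted p = 0.996) in stimulated and -0.053 (SE 0.15) in unstimulated cells. Without NOD anti-IgM replicate 1 the difference in stimulated cells was 0.29, and without NOD anti-IgM replicate 2 it was 0.63. The averaged difference was 0.20 (SE 0.11, 95% interval -0.039 to 0.45). In all, NOD arrays lay above NR4 arrays without overlap for 2 of 7 members in unstimulated cells (Tnfrsf1b and Tnfrsf18) and for 1 of 7 in stimulated cells (Tnfrsf4), against 4.01% and 7.97% of all genes.

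For the other 4 receptors, as for Tnfrsf4, the interval of the averaged difference included 0. Tnfrsf9, the gene of 4-1BB, had an averaged difference of 0.18 (SE 0.11, 95% interval -0.056 to 0.42), made of 0.066 in probe set 1421481_at, 0.10 in 1428034_a_at and 0.27 (SE 0.18) in 1460469_at. The last of these was lowest on unstimulated NR4 replicate 3, at -0.92. Tnfrsf14, the gene of HVEM, differed by 0.13 (SE 0.18, 95% interval -0.27 to 0.53) and Tnfrsf25, the gene of DR3, by -0.10 (SE 0.16, 95% interval -0.47 to 0.26). Tnfrsf8, the gene of CD30, differed by 0.029 (SE 0.12, 95% interval -0.23 to 0.29), so the interval holds the signal difference of its 1 probe set within 0.3 log2 units either way. Whether this signal lies above background is not known, so the interval does not bound the difference in transcript. For Tnfrsf14 and Tnfrsf25 the intervals still allow differences of about 0.5.

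**Figure D1:**
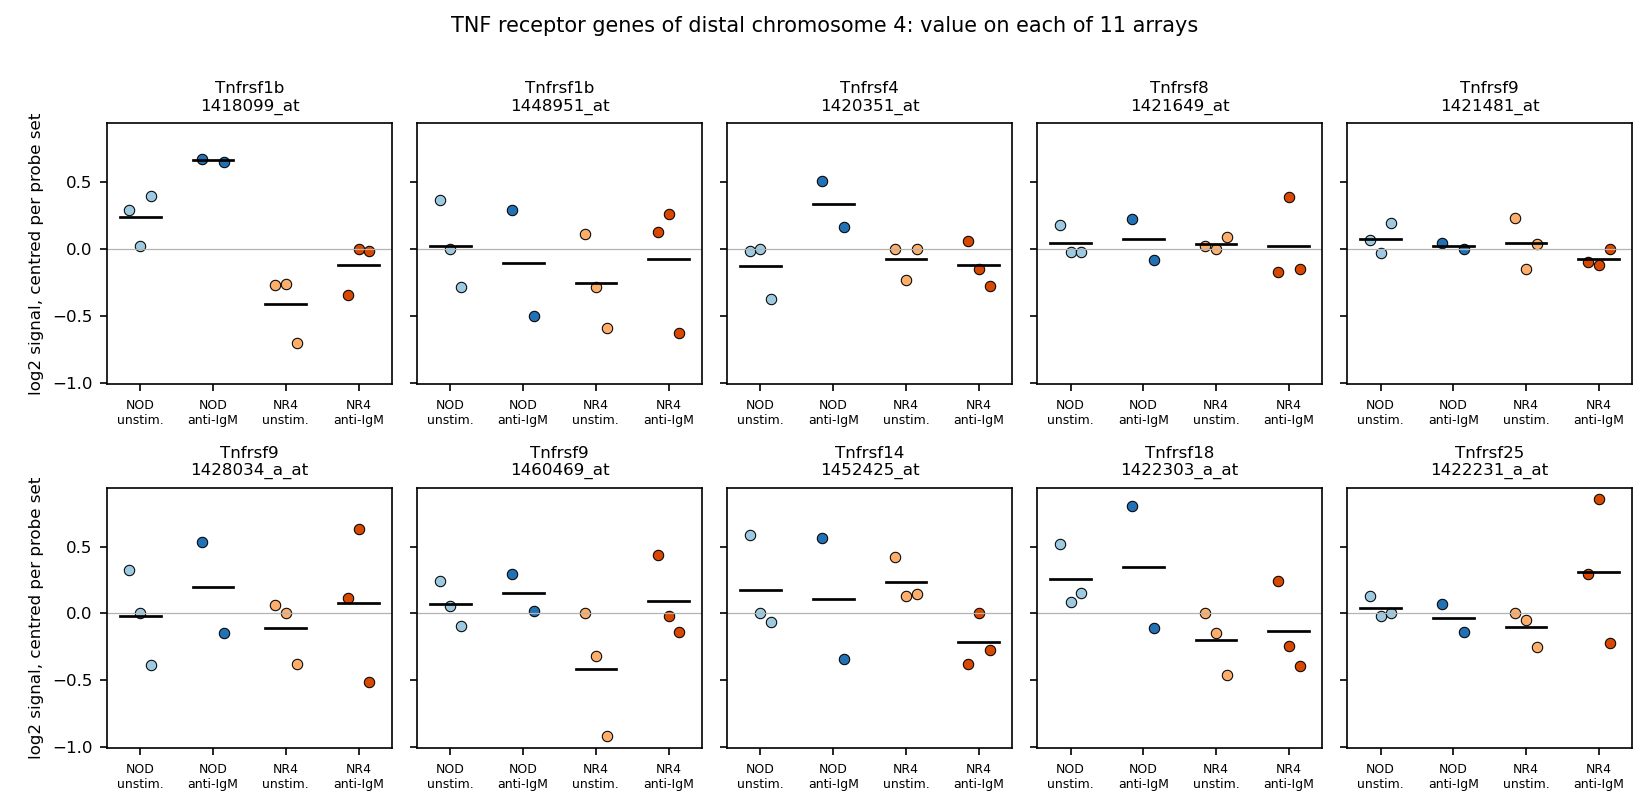
Each panel shows 1 member probe set, with log2 signal centred on its median over the 11 arrays against strain and culture; points are arrays and bars are group means. Only 1418099_at of Tnfrsf1b has all NOD points above all NR4 points of the same culture, with stimulated NOD cells at 0.67 and 0.65.

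In the order of the 1087 tested chromosome 4 genes, Tnfrsf1b and Tnfrsf8 are neighbours at places 942 and 943, Tnfrsf9 is 998, Tnfrsf25 is 1012, Tnfrsf14 is 1040, and Tnfrsf4 and Tnfrsf18 are neighbours at 1076 and 1077. Of the 50 other genes that lie within 5 places of a member, 3 were called in the averaged strain comparison, where 13 of the 1087 chromosome 4 genes (1.2%) were called. All 3 flank the Tnfrsf1b and Tnfrsf8 pair. Dhrs3, a retinaldehyde reductase gene directly before Tnfrsf1b in this order, was higher in NOD by 3.33 (SE 0.30, limma adjusted p = 0.00096). The pseudogene Znf41-ps and the predicted gene Gm13238, placed 2 and 3 genes after Tnfrsf8, were lower in NOD. Znf41-ps differed by -1.52 (SE 0.12, limma adjusted p = 0.00033). Gm13238 differed by -2.48 (SE 0.18, limma adjusted p = 0.00019). Around the other 5 members none of the neighbours was called by limma, and Errfi1 at 0.17 and Tas1r1 at -0.22 were those under an unadjusted p of 0.05. The last called gene on the chromosome, Cenps, is at place 978, with 19 genes between it and Tnfrsf9, so that 5 of the 7 receptors lie beyond it. Where the NOR segment of NR4 begins and ends is not given in the sources used here.

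**Figure D2:**
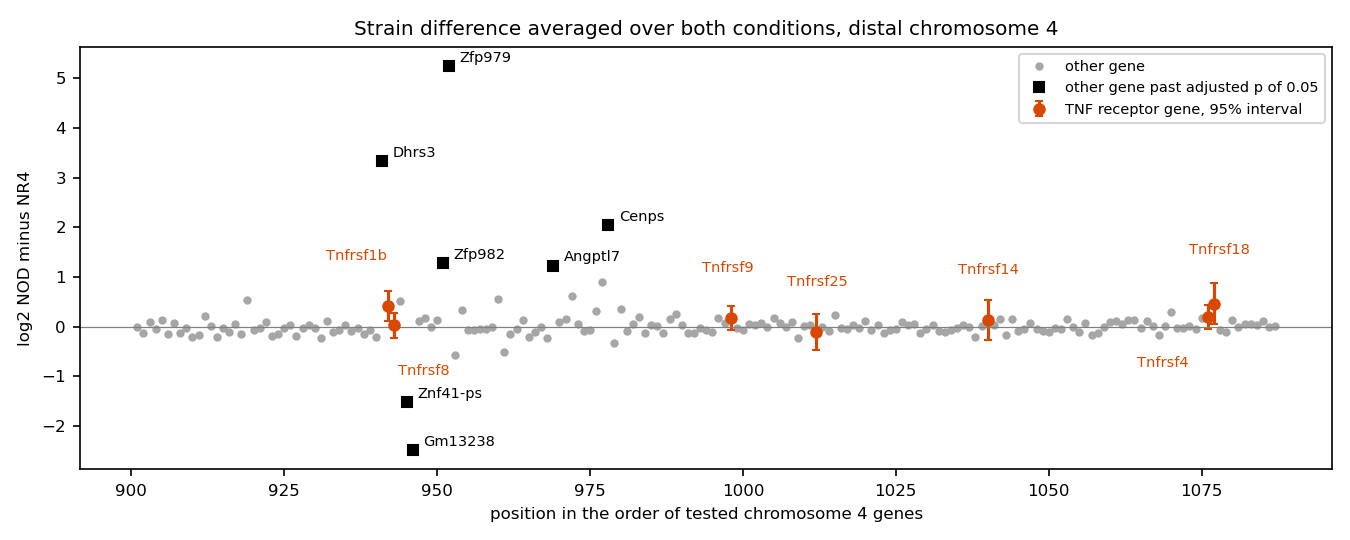
Strain difference (log2, NOD minus NR4, averaged over both conditions) of the most distal tested genes in the chromosome 4 gene order; receptors are circles with 95% intervals and called genes are squares. The called genes end at Cenps (place 978), before Tnfrsf9, and of the receptors Tnfrsf1b and Tnfrsf8 lie before it.

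The second comparison asked whether the receptors respond to cross-linking of the B cell receptor within 2 h. No member passed limma's test in NOD, in NR4 or averaged over both, where 0.115%, 0.412% and 1.56% of all genes did. By limma's unadjusted p under 0.05 there was 1 member in NOD, Tnfrsf4, and 0 in NR4, against 5.15% and 9.63% of all genes, and 0 in the averaged response, against 11.4%. As single probe sets the members also gave 0 calls, where 0.0444%, 0.167% and 1.01% of all probe sets were called, and 2, 0 and 1 had an unadjusted limma p under 0.05, against 4.82%, 9.08% and 10.6%. In the fit with a replicate block, 229 genes in place of 75 were called in NR4, again with 0 members. Response values and SEs here come from the fit of group means, which does not pair the cultures of a lot. Averaged responses of the 7 genes lay between -0.26 and 0.21, with a median of 0.12 against 0.0034 over all genes.

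Tnfrsf4 had a mean of -0.13 ± 0.21 (SD, n = 3) in unstimulated and 0.34 ± 0.24 (SD, n = 2) in stimulated NOD cells, a difference of 0.47 (SE 0.16, 95% interval 0.10 to 0.83) that did not pass adjustment (limma adjusted p = 0.70). Both stimulated NOD arrays lay above the 3 unstimulated ones, as they did for 1 of the 7 members and for 8.27% of all genes. Without NOD anti-IgM replicate 1 the difference was 0.29, and without NOD anti-IgM replicate 2 it was 0.64. In NR4 the means were -0.076 ± 0.13 (SD, n = 3) and -0.12 ± 0.17 (SD, n = 3), a difference of -0.046 (SE 0.15). The test of the difference between the responses gave 0.51 (SE 0.22, limma adjusted p = 1.0). It was the only member with an unadjusted limma p under 0.05 there, both as a gene and as a probe set, where 1.4% of genes and 1.59% of probe sets were, and 0% of either passed adjustment. The same 2 omissions gave 0.34 and 0.68.

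Tnfrsf14 did not overlap between unstimulated and stimulated NR4 cells, and overlapped in NOD cells. Its 3 unstimulated NR4 arrays read 0.42, 0.13 and 0.15 and the 3 stimulated ones -0.37, 0 and -0.27, which do not overlap. Stimulated NR4 arrays lay below unstimulated ones in this way for 1 of the 7 members and for 7.49% of all genes. The difference was -0.45 (SE 0.24, 95% interval -0.98 to 0.085, limma adjusted p = 0.60). In NOD cells the arrays read 0.59, 0 and -0.066 unstimulated and 0.56 and -0.34 stimulated, a difference of -0.065 (SE 0.27). The difference between the responses, 0.38 (SE 0.36), did not pass, and it was -0.068 without NOD anti-IgM replicate 1 and 0.83 without NOD anti-IgM replicate 2.

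Tnfrsf1b differed by 0.36 (SE 0.12, limma adjusted p = 0.26 over all probe sets) in 1418099_at and by 0.023 (SE 0.225) in 1448951_at, averaged over both strains. In 1418099_at the stimulated NOD arrays lay above the unstimulated ones, as they did in 2 of the 10 member probe sets and in 8.9% of all probe sets. In NR4 they overlapped, and the difference between the responses was 0.13 (SE 0.24). Tnfrsf25 differed by 0.41 (SE 0.22) in NR4, where stimulated replicate 2 alone read 0.85 and replicates 1 and 3 read 0.29 and -0.22. In NOD it differed by -0.069 (SE 0.24).

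Tnfrsf9, a known early activation gene of T cells and, with Tnfrsf8, a member whose promoter windows hold both an NF-kB and an AP-1 match, differed by 0.12 (SE 0.11, 95% interval -0.12 to 0.36, limma adjusted p = 0.85). Its probe sets ranged from -0.086 (SE 0.088) in 1421481_at to 0.30 (SE 0.18) in 1460469_at. Tnfrsf18 differed by 0.081 (SE 0.19) and Tnfrsf8 by 0.0052 (SE 0.12). The intervals of all 3 include 0.

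**Figure D3:**
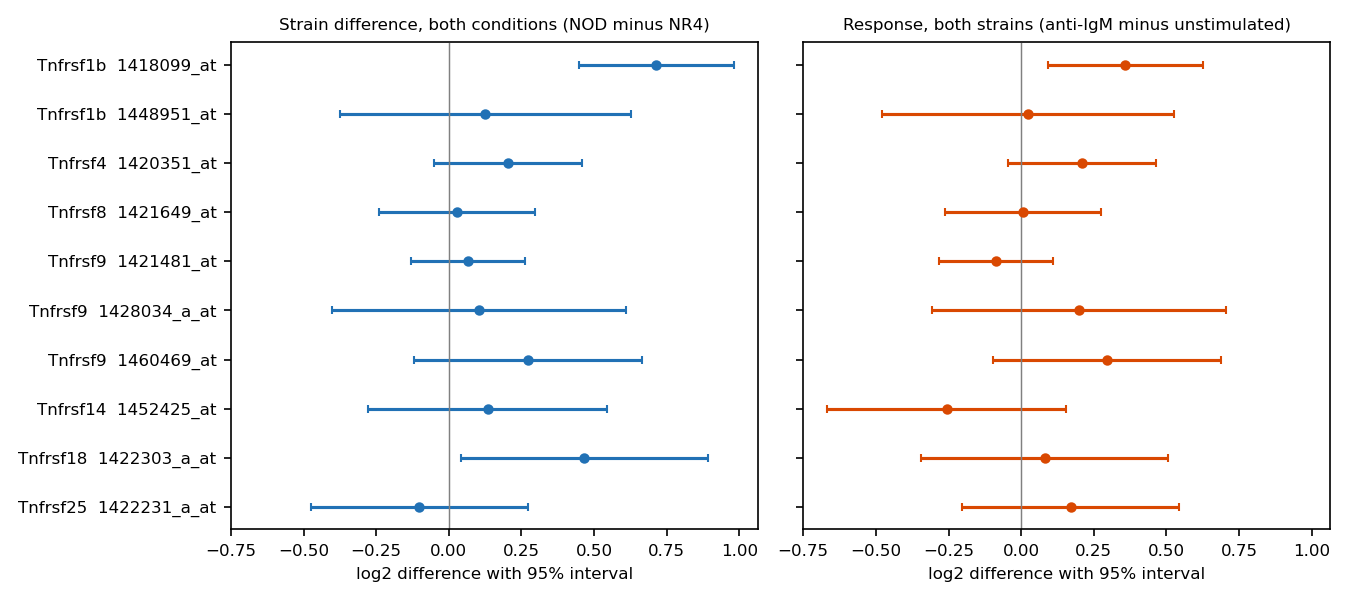
Points are log2 differences of the 10 member probe sets with 95% intervals from limma, for the averaged strain difference on the left and the averaged response on the right. In the strain panel the intervals of 1418099_at (0.45 to 0.98) and of Tnfrsf18 lie above 0, and in the response panel that of 1418099_at (0.092 to 0.62) does so before adjustment.

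The gene values of 3 receptors varied together from array to array, but not all of their probe sets did. Over the 11 arrays the gene values of Tnfrsf9 correlated with those of Tnfrsf1b at r = 0.89 and with those of Tnfrsf18 at r = 0.88, and Tnfrsf1b with Tnfrsf18 at r = 0.83. Probe set 1421481_at of Tnfrsf9 correlated with 1418099_at and 1448951_at of Tnfrsf1b at only 0.19 and 0.00075, and with Tnfrsf18 at 0.22. With 1428034_a_at and 1460469_at of Tnfrsf9, 1418099_at correlated at 0.26 and 0.55, and 1448951_at at 0.89 and 0.69. Tnfrsf4 and Tnfrsf18, though neighbours, correlated at r = 0.59, and Tnfrsf1b and Tnfrsf8 at r = 0.44. The arrays numbered 1 were high and those numbered 3 low: the means by replicate number were 0.39, -0.10 and -0.23 for Tnfrsf18, 0.16, -0.013 and -0.30 for Tnfrsf1b and 0.18, -0.041 and -0.20 for Tnfrsf9. Tnfrsf4 fell in the same order, with means of 0.14, -0.054 and -0.22. Its replicate 3 arrays read -0.37 in unstimulated NOD, 0 in unstimulated NR4 and -0.28 in stimulated NR4 cells. No stimulated NOD array is numbered 3, so comparisons of stimulated NOD cells with other groups are unbalanced in replicate number, those of Tnfrsf4 among them. High values on arrays numbered 1 were not particular to the receptors. Listed as unstimulated and stimulated NOD, then NR4, the mean of the ligands and partners given below read 0.12, 0.32, 0.13 and 0.15 there. That of the adaptors read 0.12, 0.10, 0.15 and 0.070. The B cell marker mean did not follow, at 0.12, -0.084, 0.16 and -0.38. Lots and processing are shared by the points of these correlations, which describe the arrays and carry no test.

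A mean of T cell markers moved with the same receptors, but Cd4 and Cd8a did not. Cd8a read -0.098 unstimulated and -0.096 stimulated on NOD replicate 1, where Tnfrsf9 read 0.24 and 0.29. On NR4 replicate 3 Cd8a read 0.28 unstimulated and 0.54 stimulated, where Tnfrsf9 read -0.38 and -0.14. Cd4 was below 0 on every NOD array and above 0 on every NR4 array but unstimulated replicate 3. The mean of 7 T cell markers (Cd3d, Cd3e, Cd3g, Cd247, Cd4, Cd8a and Thy1) correlated with Tnfrsf9 at r = 0.93, with Tnfrsf1b at r = 0.79 and with Tnfrsf18 at r = 0.77, but with Tnfrsf4 at r = 0.42 and with Tnfrsf8 at r = 0.21 (11 arrays). This mean lay between -0.12 and 0.26 in unstimulated NOD, between -0.070 and 0.27 in stimulated NOD, between -0.39 and 0.17 in unstimulated NR4 and between -0.018 and 0.038 in stimulated NR4 cells. Within the list, Cd3g differed between strains by 1.02 (SE 0.25, limma adjusted p = 0.41) and Cd3d by 0.55 (SE 0.20), while Cd4 was at -0.72 (SE 0.12, limma adjusted p = 0.072) and Cd8a at -0.42 (SE 0.12). The list had 0 of 7 members called in the averaged strain difference. The mean of 5 markers of regulatory and activated T cells (Foxp3, Il2ra, Ctla4, Ikzf2 and Icos) correlated with Tnfrsf9 at r = 0.85, with Tnfrsf18 at r = 0.83, with Tnfrsf1b at r = 0.81 and with Tnfrsf4 at r = 0.66. It ran from -0.094 to 0.074 in unstimulated NOD and from -0.35 to 0.12 in unstimulated NR4 cells. In stimulated cells it ran from 0.032 to 0.37 in NOD and from -0.22 to -0.031 in NR4, without overlap. Tnfrsf4 also did not overlap there, as was so in this direction for 7.97% of all genes. Of the 5 markers, 1 had an unadjusted limma p under 0.05 in that comparison, against 4.34% of all genes, and 0 were called. The mean of 7 NK and cytotoxic cell markers correlated with Tnfrsf9 at r = 0.85 and with Tnfrsf1b at r = 0.80, and was lowest at -0.78 on unstimulated NR4 replicate 3, where Gzma read -2.10. The mean of 6 monocyte and macrophage markers (Csf1r, Lyz2, Cd68, Itgam, Adgre1 and Cd14) correlated with Tnfrsf9 at r = 0.89, with Tnfrsf18 at r = 0.89 and with Tnfrsf1b at r = 0.84. It lay between -0.068 and 0.12 in unstimulated and between -0.0083 and 0.22 in stimulated NOD cells, and between -0.21 and -0.016 in unstimulated and between -0.19 and 0.16 in stimulated NR4 cells. Adgre1, from -0.69 to 0.57, and Cd14, from -0.62 to 0.78, varied most over the arrays. The averaged strain differences of the 6 ran from -0.047 to 0.47 with a median of 0.017. Correlations of Tnfrsf9 with the other lists were weaker, at 0.48 for dendritic cells, -0.27 for B cells, -0.34 for plasma cells and -0.37 for neutrophils. The plasma cell mean, of 4 markers, lay between -0.15 and -0.033 on the 5 NOD arrays and between 0.056 and 0.20 on the 6 NR4 arrays, with 0 of 4 genes called. Probe sets of a gene differed in this. For Tnfrsf9 the T cell mean correlated at r = 0.82 with 1460469_at, at r = 0.64 with 1428034_a_at and at r = 0.15 with 1421481_at, and for Tnfrsf1b at r = 0.77 with 1448951_at and at r = 0.48 with 1418099_at. Probe set 1418099_at had the larger averaged strain difference of the Tnfrsf1b probe sets, which was not called in the main fit. This probe set correlated at r = 0.62 with NK, 0.60 with regulatory T cell, 0.55 with monocyte and 0.52 with dendritic cell markers, and at -0.27 with B cell, -0.59 with neutrophil and -0.62 with plasma cell markers. Because every probe set is centred, it is not known which of these markers are near background, and their part in the receptor values was not tested.

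**Figure D4:**
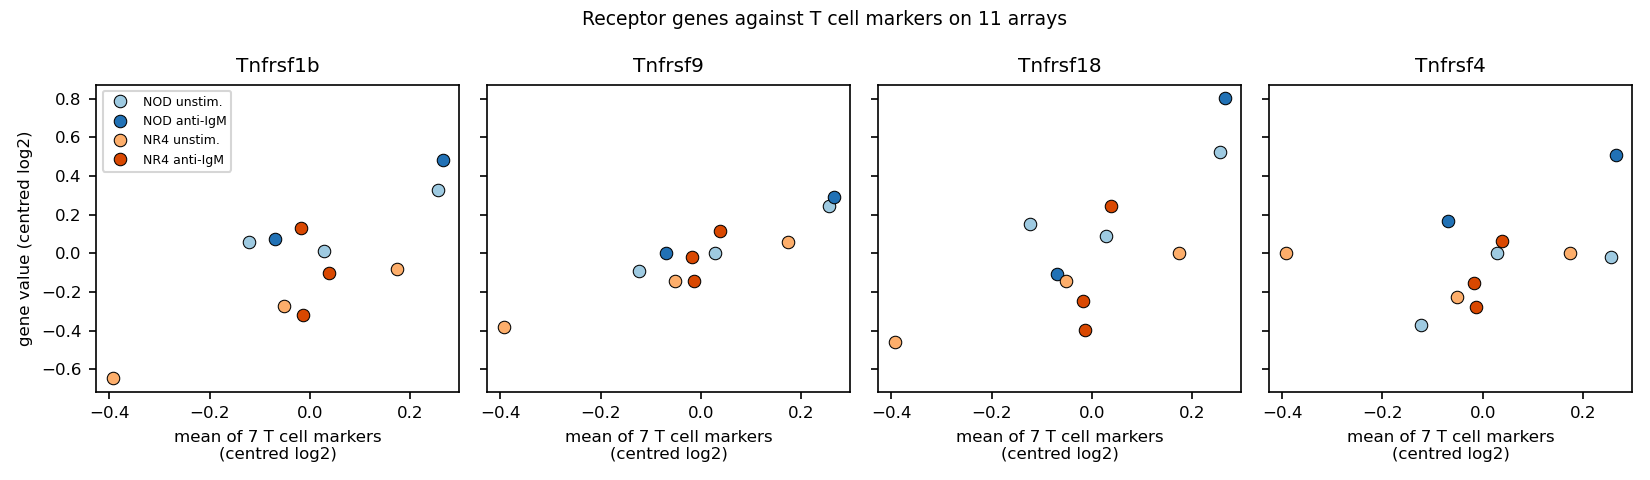
Each point is 1 of the 11 arrays, with the mean of 7 T cell markers on the horizontal axis and the gene value on the vertical axis, both as centred log2. The gene value of Tnfrsf9, a median of 3 probe sets, follows this mean most closely of the 4 genes shown (r = 0.93) and Tnfrsf4 least (r = 0.42), and unstimulated NR4 replicate 3 is the leftmost point.

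The genes whose values over the 11 arrays were most like those of a member were found by Pearson's r over all tested genes. For Tnfrsf9 they were Eomes (r = 0.96), Acy1 (r = 0.95) and Jak3 (r = 0.95). For Tnfrsf1b they were Apoe (r = 0.96), AI847159 (r = 0.93) and Map4k4 (r = 0.93), and for Tnfrsf18 they were Bard1 (r = 0.94), Cd209c (r = 0.93) and Frs3os (r = 0.93). Tnfrsf25 was most like Fut1, Tekt3 and Tagln3 (r from 0.98 to 0.99), Tnfrsf8 like Lppos, Wap and Crxos (0.92 to 0.94), Tnfrsf4 like Setd1a, Hspa4l and Ypel4 (0.89 to 0.92) and Tnfrsf14 like Sugp2, Purb and Ears2 (0.92 to 0.93). With 18193 genes and 11 arrays, high values of r are found for any gene, and these are descriptions.

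Genes of the same pathway were set beside the receptors. Of 9 measured ligands and binding partners (Tnf, Lta, Ltb, Tnfsf4, Tnfsf8, Tnfsf9, Tnfsf14, Btla and Cd160), 0 were called in any of the 7 comparisons by limma. In the averaged response 3 of the 9 had an unadjusted limma p under 0.05, against 11.4% of all genes, and the list median was -0.092. Tnfsf9, the ligand of 4-1BB, differed most, by 0.91 (SE 0.21, limma adjusted p = 0.064), with 0.91 (SE 0.31) in NOD and 0.91 (SE 0.27) in NR4. Its arrays read 0, -0.93 and -0.11 in unstimulated and 0.44 and 0.68 in stimulated NOD cells, and -0.36, -0.67 and -0.63 in unstimulated and 0.91, 0.13 and 0.022 in stimulated NR4 cells. The conditions do not overlap in either strain, as was so in this direction for 2.08% of all genes. Tnfsf4, the ligand of OX40, differed by 0.53 (SE 0.15, limma adjusted p = 0.13), with 0.85 (SE 0.22) in NOD and 0.21 (SE 0.20) in NR4. The difference between these responses was 0.64 (SE 0.29, limma adjusted p = 1.0), and stimulated NOD replicate 1, also the highest array for Tnfrsf4, read 1.13. Tnf, the ligand of TNFR2, differed by 0.40 (SE 0.11, limma adjusted p = 0.14), and Ltb, a subunit of the lymphotoxin heterotrimer, by -0.53 (SE 0.25).

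**Figure D5:**
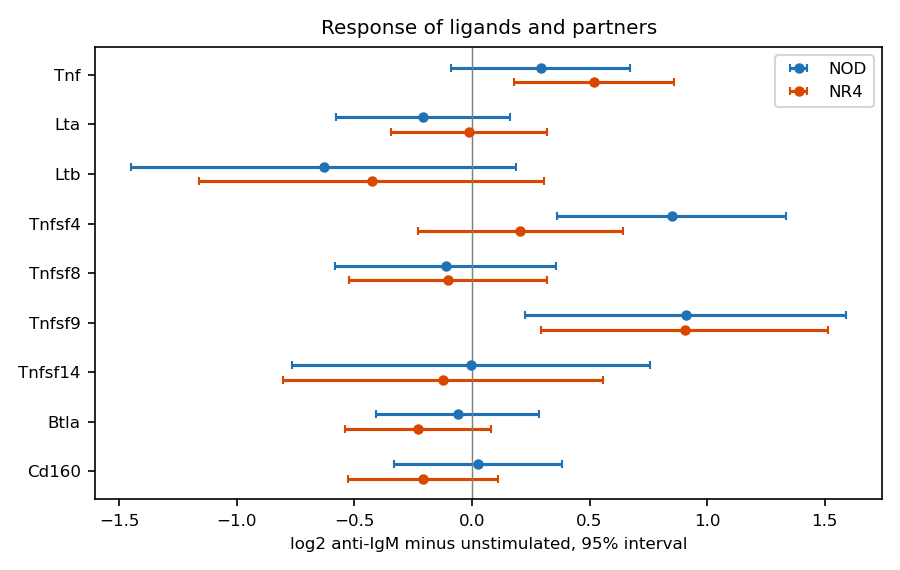
Response to anti-IgM (log2, with 95% intervals from limma) of the 9 ligands and partners, in NOD and in NR4 cells. Tnfsf9 is at 0.91 in both strains, Tnfsf4 at 0.85 in NOD and 0.21 in NR4, and none passed adjustment.

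Among 12 adaptors and signalling proteins, 0 were called by limma. In the averaged response 3 of the 12 had an unadjusted limma p under 0.05, against 11.4% of all genes. In the averaged response Traf1, an adaptor of TNFR2 and 4-1BB, differed by 0.72 (SE 0.16, limma adjusted p = 0.060) and Birc3, a ubiquitin ligase bound by TRAF2, by -0.31 (SE 0.066, limma adjusted p = 0.054), with a list median of -0.070. Over 11 NF-kB subunits, inhibitors and feedback genes the median averaged response was 0.23, against 0.0034 over all genes. Of the 11, 4 were called higher in it and 0 lower, against 0.715% and 0.841% of all genes. The 4 were the subunit gene Rel at 1.09 (SE 0.083, limma adjusted p = 0.00036) and the inhibitor genes Nfkbid at 0.84, Nfkbiz at 0.42 and Nfkbie at 0.41. Rel alone was called within each strain, at 1.14 in NOD and 1.05 in NR4. Of 20 measured TNF receptor family genes on other chromosomes, 0 were called by limma in any comparison. In the averaged response 3 of the 20 had an unadjusted limma p under 0.05, against 11.4% of all genes. Over the 20 the median averaged response was 0.11. Their median averaged strain difference was -0.010, against 0.18 for the 7 on distal chromosome 4. In the averaged response Cd40 was at -0.52 (SE 0.14, limma adjusted p = 0.11). Tnfrsf12a, the receptor of TWEAK, was at 0.66 (SE 0.18, limma adjusted p = 0.12). Of the 6 B cell markers, Cd22, Cd79b and Ms4a1 fell in the averaged response by limma (adjusted p from 0.016 to 0.026), by 0.99, 0.62 and 0.51 log2 units. Calls of lower genes there were 0.841% of all genes. Of the 5 dendritic cell markers, Itgax rose by 0.50 (SE 0.082, limma adjusted p = 0.017), where 0.715% of all genes were called higher.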

How the data were processed

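RNA of 4 groups was measured on 11 Mouse Genome 430 2.0 arrays, grouped by their titles. The authors made the deposited log2 values with RMA, per the submitters' processing notes; its version is not given here. All 45101 probe sets have a median of 0, which removes levels and keeps differences between arrays.

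The platform annotation gave 34945 probe sets 1 symbol, 932 several and 9160 none, and 64 were controls. A gene's value is the median of its probe sets. Gene order came from RefSeq (GRCm38.p6; 99.1% of genes matched), without coordinates, since the build of the files is unknown. Listed genes without a probe set of their own here, such as Traf3 and Nfkb1, were not analysed here. A model of 4 group means on all arrays was tested with limma 3.58.1 (R 4.3.3), two-sided, with 7 residual degrees of freedom and Benjamini-Hochberg adjustment over 18193 genes, and again over 45037 probe sets. The code was tested on simulated data. The members and lists were chosen with earlier results of these data known.

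All members are named, as are called genes of the pathway lists (or the 2 with the smallest p in the averaged response), called genes within 5 places of a member and the 3 genes most like each member. Other genes with values were chosen after their values were seen.

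Replicates are separate lots. Same-numbered arrays deviated together over all genes: r was 0.59, 0.21 and 0.51 between unstimulated NOD and NR4, and 0.33, 0.22 and 0.47 between unstimulated and stimulated NR4. Stimulated NOD has only 2 pairs per comparison, so the values cannot show there that equal numbers mark the same lot. By design each lot was divided between both cultures, so stimulated and unstimulated arrays of a strain share lots, NOD included. The model of group means leaves this pairing out of its response estimates and SEs. For the replicate block, calls of members are given but not their separate responses. Alternatives were the replicate block, 2 other normalizations, 3 other ways to form gene values, robust moderation, only the groups compared, and each array left out.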

Additional observations from a re-analysis of the deposited data

How the results depend on the processing

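No member gene was called by limma under any of the 18 or 19 alternatives per comparison, and no member probe set under any of 15, with 1 exception: after quantile normalization of the deposited values, 1 member probe set, 1418099_at of Tnfrsf1b, passed in the averaged strain difference (adjusted p = 0.032). The replicate block changed no call of a member. With that replicate block the count of called genes was 37 in place of 22 in the averaged strain difference, 52 in place of 21 for the response in NOD, 229 in place of 75 in NR4 and 558 in place of 283 averaged. After quantile normalization 9 genes were called for the response in NOD and 16 in NR4. With only the groups compared in the fit, the counts were 4 in place of 9 for the strain difference in stimulated cells, 0 for the response in NOD and 9 in NR4. With each array left out in turn the counts ran from 4 (without NOD anti-IgM replicate 1) to 10 for the strain difference in stimulated cells, from 12 (without NOD anti-IgM replicate 2) to 21 for the averaged one, from 0 to 25 for the response in NOD (0 without NOD anti-IgM replicate 2), from 21 (without unstimulated NR4 replicate 1) to 50 in NR4 and from 76 to 273 averaged (76 without NOD anti-IgM replicate 2). The fits with fewer arrays have fewer degrees of freedom, the lone stimulated NOD array left in 2 of them is assumed to vary like the other groups, and the cause of the other shifts was not tested. Among values of member genes that were not called, the sign changed for 3 of 7 in the averaged strain difference and 3 of 7 in the averaged response under at least 1 alternative. Tnfrsf1b and Tnfrsf18 kept their sign in the former under all 18. The lowest-numbered probe set turned Tnfrsf9 to -0.086 in the averaged response. Background correction and a filter on dim probe sets were not run, because centred values hold neither.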
